A study of Schistosoma mansoni with 6 samples.

Results

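Schistosome eggs harden by quinone tanning. The precursor proteins of the eggshell are made and stored in vitelline cells, tyrosinases oxidise tyrosine residues of these proteins, and the reactive quinones that form cross-link them into an insoluble shell. Tyrosinases carry copper in their active site. Dyp-type peroxidases are haem enzymes that oxidise their substrates with hydrogen peroxide and were first described in fungi and bacteria.

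Described here are 3 of the 10831 genes with a deposited value, taken by annotation and identifier. They are tyrosinase 1 (Smp_050270), tyrosinase 2 (Smp_013540) and the Dyp-type peroxidase Smp_172830. The first pair are the only ones annotated as Tyrosinase. Both tyrosinases belong to eggshell tanning by their enzyme class, whereas no source used here places the peroxidase in that process, so it is named below by its annotation. All 3 were proposed with their levels in tails and heads in view, and these levels are therefore a description without a test.

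RNA came from tails, the fragments posterior to the ovary, and heads, the fragments anterior to it, of adult female Schistosoma mansoni recovered from mice 7 to 8 weeks p.i. There were 3 libraries of tails and 3 of heads, each from pooled fragments of many worms and a separate round of RNA extraction. No genotype, strain or treatment distinguishes the groups. Because a fragment holds many tissues, a transcript with more cells expressing it and one with more copies per cell cannot be told apart.

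The deposited columns hold group means of normalized counts, which are reads per gene divided by a size factor for each library. Whole reads of single libraries were solved from these means where only 1 set of reads fitted, and head libraries are called by their size factor, as in head library 2.55. The estimated depth on genes was 5.25 to 11.8 M reads in tail libraries and 25.4 to 31.1 M reads in head libraries. The 7 vitelline markers had log2 fold changes, tail mean over head mean, of 3.91 to 7.81. The 5 markers of the oesophageal gland had log2 fold changes of −7.69 to −7.29. The study picked several of these markers from the same libraries, so their direction is no independent check of the labels. Among the vitelline markers, p14 (Smp_131110), p48 (Smp_014610) and fs800 (Smp_000290) were known from earlier work, and they had 7.03, 6.09 and 7.81. Of the 9947 genes with reads, 307 (3.09%) reached a log2 fold change of 3 with the higher level in tails and 213 (2.14%) with the higher level in heads. Scaled to equal group totals, which lowers every log2 fold change by 0.43, these numbers were 263 and 389.

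The forward primers with which the study cloned its tyrosinase probes share most of their bases, and they are shown because they are the part of both genes whose sequence is given. Shifted by 2 bases, the pair overlaps over 18 bases, of which 15 are equal and 3, in capitals, differ. The reverse primers follow, without capitals, and all are written 5′ to 3′.
tyrosinase 1 forward: gttggtTtggAtggAaagga
tyrosinase 2 forward: tggtAtggTtggGaaggaaa
tyrosinase 1 reverse: tgagacgttcaccaggaaca
tyrosinase 2 reverse: cctccttcacttgaggcaaa

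Tyrosinase 1 was far higher in tails. Its authors' mean in tails was 27111 normalized counts, whereas head libraries 2.55, 2.35 and 2.08 had 8.63, 197 and 514 normalized counts, with a mean of 239.9 ± 256 (SD, n = 3). These head values rest on 22, 462 and 1072 reads. The tail mean was thus above each head library, and the head libraries differed among themselves by 59.6-fold. The fold of tails over heads was 113, a log2 fold change of 6.82. Set against single head libraries, the tail mean was 3143-fold, 138-fold and 52.7-fold higher. The fold was 264 when head library 2.08 was left out and 76.3 when head library 2.55 was.

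Tyrosinase 2, annotated as the same enzyme, had much the same pattern. Its authors' mean in tails was 9799.5 normalized counts, whereas head libraries 2.55, 2.35 and 2.08 had 3.53, 67.3 and 262 normalized counts, from 9, 158 and 546 reads. Again the tail mean was above every head library and head library 2.55 was far below the other two. The mean in heads was 110.9 ± 135 (SD, n = 3), the fold of tails over heads 88.3 and the log2 fold change 6.46. Leaving out head library 2.08 gave a fold of 277, and leaving out head library 2.55 one of 59.5. Which tyrosinase had the larger fold depended on the head libraries, as it was tyrosinase 1 over all 3 (113 against 88.3) and tyrosinase 2 without 2.08 (277 against 264).

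The Dyp-type peroxidase had a smaller fold and far more even heads. Its authors' mean in tails was 4106 normalized counts, whereas head libraries 2.55, 2.35 and 2.08 had 59.2, 96.2 and 165 normalized counts, from 151, 226 and 344 reads. The order of the head libraries was that of the tyrosinases, but the highest was only 2.79-fold above the lowest. The mean in heads was 107 ± 53.7 (SD, n = 3), the fold of tails over heads 38.4 and the log2 fold change 5.26. With single head libraries left out, its fold lay between 31.4 and 52.8.

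**Figure D1:**
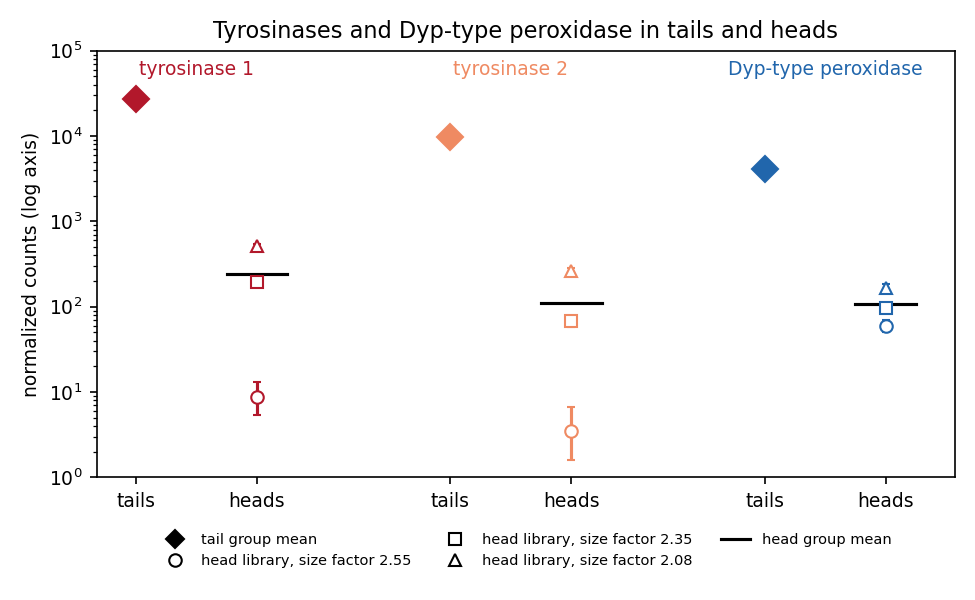
Normalized counts (log axis) of tyrosinase 1, tyrosinase 2 and the Dyp-type peroxidase in tails, as the authors' group mean (diamond), and in the 3 head libraries (open symbols, with 95% Poisson intervals of counting error) with their group mean (line). The tail means of 27111, 9799.5 and 4106 lie above every head library, and head library 2.55 is low for the tyrosinases, at 8.63 and 3.53.

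Levels of tails are known as means only. Too many sets of reads fitted the tail means, 9660 for tyrosinase 1, 130 for tyrosinase 2 and 27 for the peroxidase, and none was chosen. Whatever the split, the tail means stand for at least 25986 reads of tyrosinase 1, 9393 of tyrosinase 2 and 3936 of the peroxidase, so counting error was small in tails. Spread between tail libraries cannot be given for these genes. All 3 exceeded a log2 fold change of 3 in tails, against the 3.09% of genes given above, and as this contrast was known when they were proposed nothing is read from that count. Ordered by log2 fold change among 7196 genes whose overall mean reached 100, tyrosinase 1 ranked 12, tyrosinase 2 ranked 24 and the peroxidase ranked 52. The share of all normalized counts that tyrosinase 1 took was 0.165% in tails and 0.00197% in heads, and that of the peroxidase was 0.0250% in tails and 0.000875% in heads.

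The read ratio of a pair of genes within a library does not depend on the size factor, and comparing it between libraries does not depend on gene length. Tyrosinase 1 over tyrosinase 2 was 2.77 by the tail means. In head libraries 2.55, 2.35 and 2.08 this ratio was 2.44 (95% exact binomial interval 1.08 to 6.03), 2.92 (2.44 to 3.53) and 1.96 (1.77 to 2.18). The tail ratio lay inside the intervals of head libraries 2.55 and 2.35 and above that of 2.08, and the intervals of 2.35 and 2.08 did not overlap. Both tyrosinases thus kept their ratio within a range of 1.96 to 2.92 while their levels in heads differed by 59.6-fold and 74.3-fold.

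The ratio of tyrosinase 1 to the peroxidase was not kept. It was 6.60 by the tail means, against 0.146 (95% exact binomial interval 0.0887 to 0.229) in head library 2.55, 2.04 (1.74 to 2.41) in 2.35 and 3.12 (2.76 to 3.53) in 2.08. The ratio of tyrosinase 2 to the peroxidase was 2.39 by the tail means and 0.0596, 0.699 and 1.59 in these head libraries. The 3 head intervals of either ratio did not overlap, and all lay under the tail ratio. Intervals here cover counting error only.

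**Figure D2:**
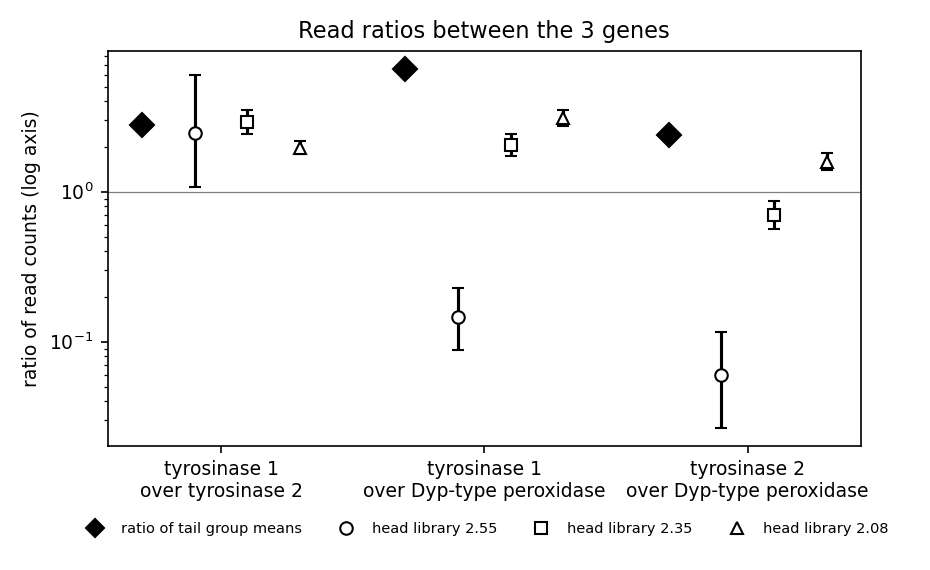
Ratios of read counts (log axis) between the 3 genes, from the tail group means (filled diamond) and in each head library (open symbols with 95% exact binomial intervals). Tyrosinase 1 over tyrosinase 2 stays between 1.96 and 2.92, whereas tyrosinase 1 over the peroxidase runs between 0.146 and 3.12 in heads and is 6.60 in tails.

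The tyrosinases were among the most uneven genes in heads. Over the 1453 genes whose head mean was 100 to 300 and whose head reads were solved, the highest head library was a median of 1.14-fold above the lowest. By this measure tyrosinase 2 ranked 3, tyrosinase 1 ranked 4 and the peroxidase ranked 14. The 21 of these genes that passed a log2 fold change of 3 in tails had a median of 2.73 and an upper quartile of 13.5. The 3 genes described here are among these 21 and raise both values. The peroxidase, at 2.79, was thus near a median it helps to set, and both tyrosinases were above the upper quartile. Head library 2.55 was lowest and 2.08 highest for 14 of these 21 (66.7%), again with the 3 genes counted, and for 285 of the other 1432 (19.9%). The most even of the 21, the hypothetical protein Smp_186940, had 139, 134 and 138 normalized counts in head libraries 2.55, 2.35 and 2.08.

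Vitelline markers were lower in head library 2.55 in sum, but their order was not uniform. Summed over the 4 of 7 vitelline markers with recovered head reads, nanos-1, Smp_000400, cryβγ-1 and fs800, head libraries 2.55, 2.35 and 2.08 had 22.3, 146 and 180 normalized counts. The order of the tyrosinases was that of 2 of the 4, Smp_000400 and cryβγ-1, whereas nanos-1 was highest in head library 2.35 and fs800, with 1, 3 and 0 reads, was lowest in 2.08. The eggshell domain gene Smp_077890 had 25.5, 115 and 219, and Smp_000270, placed with the eggshell genes by the study, had 16.1, 95.4 and 216. The order of the tyrosinases was also seen in genes that are not tail-enriched. The acetyl coenzyme A carboxylase Smp_095350, an enzyme of fatty acid synthesis, had 5.49, 110 and 247 in these libraries with a log2 fold change of −0.27, and the hypothetical protein Smp_011870 had 5.49, 313 and 447 with one of −3.99. These genes were chosen after their values were seen. The part of vitelline tissue in the head levels of the 3 genes was not tested.

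**Figure D3:**
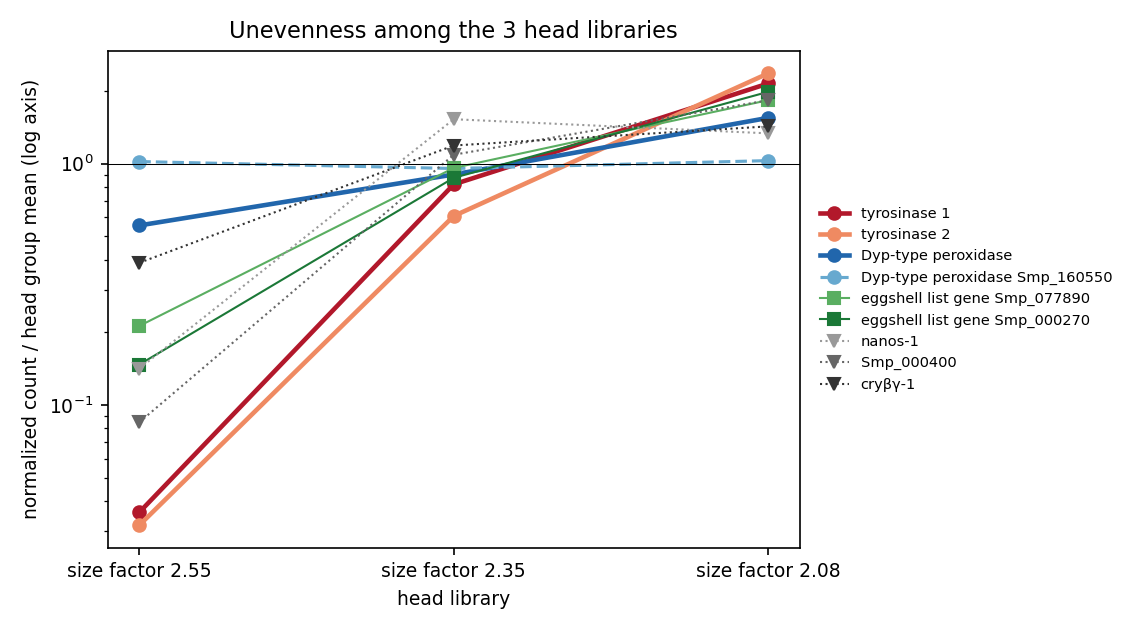
Normalized count of each gene in a head library over its head group mean (log axis), for head libraries 2.55, 2.35 and 2.08. In head library 2.55 the tyrosinases are at 0.0360 and 0.0318 of their mean and the peroxidase at 0.554, whereas the related peroxidase Smp_160550 stays level.

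Other genes of the Dyp-type peroxidase family had smaller folds of tails over heads. There were 2 of them, Smp_160550 and Smp_160560. Smp_160550 had 335, 250 and 394 normalized counts in the tail libraries with size factors of 0.72, 0.35 and 0.32, against 187, 175 and 189 in head libraries 2.55, 2.35 and 2.08. With these size factors all tail libraries were above all head libraries. Equal group totals lower the log2 fold change of its group means, 0.83, by 0.43, and its limma value in that setting was not read. The limma log2 fold change was 0.80 ± 0.18 (SE), with an adjusted p from limma of 0.00628, and with single libraries left out the adjusted p from limma was 0.00207 to 0.0327. Of the 3489 genes tested in this way, 717 were higher in tails (20.6%) and 1484 lower (42.5%) at an adjusted p from limma under 0.05. Smp_160560 had authors' means of 2052.0 normalized counts for tails and 1353 for heads, a log2 fold change of 0.60, or of 0.17 at equal group totals. The same value was 5.26 for Smp_172830. The counts of the 3 related genes are uncertain as far as reads could be shared between them, which was not tested.

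There were 12 other genes annotated as peroxidases or peroxiredoxins, enzymes that reduce peroxides, and they include this pair. Their median log2 fold change was 0.67 over the 11 with reads in both groups. It was 0.64 over all 12 with Smp_062900, which had no tail reads, entered at 3 reads over the tail libraries. All genes with a mean of at least 100 had a median of 0.14. The 12 genes had no such minimum and some, such as Smp_058700 and Smp_062900, lay under it, so these medians cover unlike sets. There was no gene annotated as a catalase. The glutathione peroxidase Smp_058690 had authors' means of 13457 for tails and 1524 for heads, a log2 fold change of 3.14. The glutathione peroxidase Smp_058700 had only 5 reads over the tail libraries and 2 over the head libraries, a ratio of 12.6 with a 95% exact binomial interval of 2.05 to 132. The peroxidasin Smp_123660, of a family known for cross-linking collagen IV in animals, had 617, 218 and 366 normalized counts in tails and an authors' mean of 1118 in heads, a log2 fold change of −1.48.

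By limma 20.6% of all genes tested were higher and 42.5% lower in tails. Of these 12 peroxidase and peroxiredoxin genes 3 could be tested, of which 2 were higher and 1 was lower in tails. Besides Smp_160550 these were the peroxiredoxin Smp_093780, with 89.0, 125 and 131 normalized counts in tails and 18.4, 17.0 and 20.2 in heads (log2 fold change 2.55 ± 0.25 (SE), adjusted p from limma 0.000199), and the tryparedoxin peroxidase Smp_062900. This last gene had 0 reads in tails and 8, 5 and 12 reads in head libraries 2.55, 2.35 and 2.08. Its mean in heads was 3.67 ± 1.87 (SD, n = 3). With tails set at 3 reads, which stood for 2.16, it was 1.70-fold lower in tails. This fold is no lower bound, as head library 2.35 had 2.13. The adjusted p from limma was 0.00292, but the gene reached the minimum of 10 reads by its heads alone, which were sequenced deeper. Smp_058700, with 5 tail and 2 head reads, did not reach it. Nothing is therefore read from the 1 gene called lower.

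Superoxide dismutases form hydrogen peroxide from superoxide. The 4 genes went apart, with 1 past a log2 fold change of 3 in either direction, beside 3.09% in tails and 2.14% in heads of all genes with reads. The extracellular Smp_095980 had authors' means of 176516 for tails and 1404 for heads, a log2 fold change of 6.97. The extracellular Smp_174810 had 20.9, 19.9 and 31.3 normalized counts in tails and 203, 192 and 194 in heads, a log2 fold change of −3.01 ± 0.23 (SE) with an adjusted p from limma of 8.33e-05. The other pair, a copper and zinc enzyme and the manganese enzyme, had log2 fold changes of 0.80 and 0.13, the second of which was below 0 at equal group totals.

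Tyrosinases need copper and Dyp-type peroxidases need haem. None of the 4 genes of copper handling and none of the 15 of haem synthesis and binding reached a log2 fold change of 3. Of all genes with reads only 3.09% reached it in tails and 2.14% in heads, so nothing is read from this. Of the copper genes 2 were tested, of which 1 was higher and 1 lower in tails, beside 20.6% higher and 42.5% lower of all genes tested. The cytochrome c oxidase copper chaperone Smp_213360, which delivers copper to the respiratory chain, had 508, 411 and 623 normalized counts in tails and 210, 237 and 241 in heads (log2 fold change 1.14 ± 0.17 (SE), adjusted p from limma 0.000976). The metallothionein Smp_147160, a metal-binding protein, had 83.4, 87.9 and 116 in tails and 252, 281 and 276 in heads (log2 fold change −1.50 ± 0.17 (SE), adjusted p from limma 0.000357). Among haem genes the median log2 fold change was 0.46, and 6 were tested, of which 3 were higher and 2 lower in tails, beside the same shares. The highest fold among them belonged to the uroporphyrinogen decarboxylase Smp_143740, an enzyme of haem synthesis, with an authors' mean of 1185 in tails and 241.5, 272 and 305 in the head libraries, a log2 fold change of 2.12. Among haem genes with an overall mean of at least 100 the lowest was the cytochrome b5 reductase Smp_127160, at −0.60 ± 0.15 (SE, adjusted p from limma 0.0109). Below that mean, and named after its value was seen, the cytochrome b561 Smp_127270 was lower still, at −0.99 ± 0.20 (SE, adjusted p from limma 0.00383).

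Genes of tyrosine and catecholamine metabolism, several of which act on the same amino acid as tyrosinases, went both ways. Of 9 genes 4 had a higher mean in tails (3 at equal group totals) and 5 in heads, and the median log2 fold change was −1.60. Of the 5 tested, 1 was higher and 4 were lower in tails, beside 20.6% higher and 42.5% lower of all genes tested. Among the lower ones, Smp_163900, Smp_130860 and Smp_135230 reached the minimum of 10 reads by their heads alone, which were sequenced deeper. Nothing is therefore read from this count. The dopamine beta hydroxylase Smp_163900, which in vertebrates forms noradrenaline, had 1, 0 and 1 reads in tails against 81, 73 and 100 reads in heads. Its tail over head ratio of summed reads was 0.0395 (95% exact binomial interval 0.00476 to 0.144). The adjusted p from limma was 0.000701, from which nothing is read for the same reason. The other gene so annotated, Smp_137640, had 41.7, 62.4 and 53.2 normalized counts in tails and 18.0, 16.6 and 14.9 in heads (log2 fold change 1.60 ± 0.28 (SE), adjusted p from limma 0.00211), and it is named after its values were seen. The aromatic amino acid decarboxylase Smp_171580, of a class that makes dopamine from DOPA in animals, had 121, 93.6 and 113 in tails and an authors' mean of 331 in heads, a log2 fold change of −1.60. The 4-hydroxyphenylpyruvate dioxygenase Smp_007960, an enzyme of tyrosine breakdown, had authors' means of 1758 for tails and 759 for heads, a log2 fold change of 1.21. Outside these lists, the lysyl oxidase Smp_128860, which cross-links matrix proteins in animals, had a log2 fold change of −1.03, and no gene was annotated as a laccase, phenol oxidase or transglutaminase.

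Eggshell precursor proteins are the substrates of tanning. The list here need not hold every gene with the eggshell domain. By its own thresholds, the study found most but not all such genes tail-enriched. All 11 listed genes of eggshell and vitelline proteins passed a log2 fold change of 3 in tails, beside 3.09% of all genes with reads. Their median was 6.61, beside 6.82 for tyrosinase 1, 6.46 for tyrosinase 2 and 5.26 for the peroxidase. The study picked part of them from these same libraries, so their count is not independent of the direction. The lowest belonged to p48 (Smp_014610) with 6.09 and the highest to fs800 (Smp_000290) with 7.81, which rests on 4 reads in heads. The peroxidase lay under all of them. Of the 3 that could be tested, all 3 were higher in tails, beside 20.6% of all genes tested. As part of the list was picked from these libraries, nothing is read from that count.

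**Figure D4:**
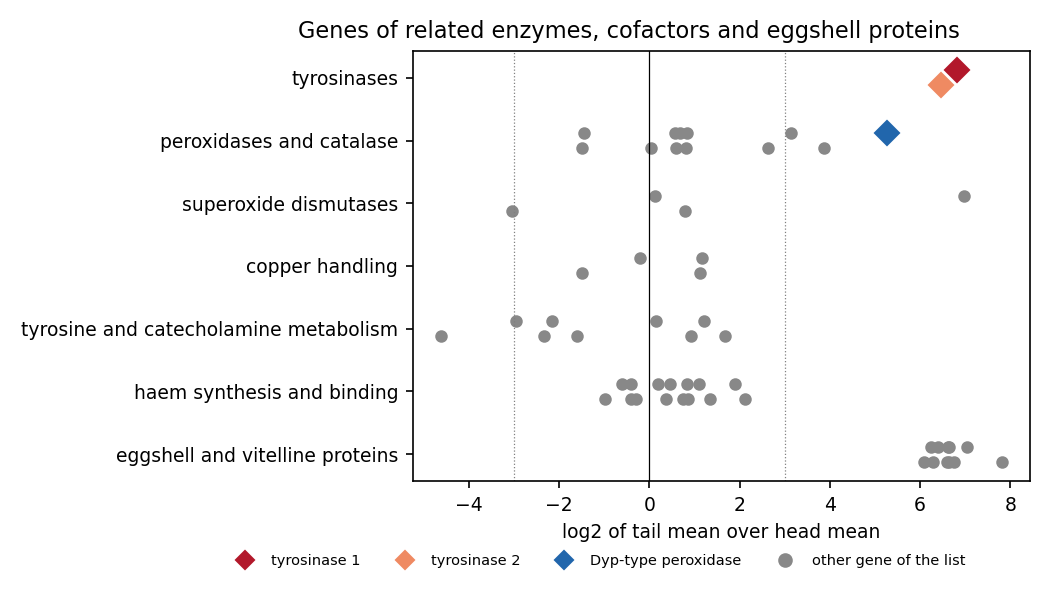
Log2 of tail mean over head mean for genes with reads in both groups, by list, with the 3 genes described here as coloured diamonds and others as grey circles. Dotted lines mark a log2 fold change of 3 in either direction. The tyrosinases lie among the eggshell and vitelline proteins, and the peroxidase at 5.26 lies right of the other peroxidases.

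The genes most alike in pattern were found by distance over 4 points, the 3 head libraries and the tail mean, on a log2(normalized count + 1) scale centred on each gene. Of 1368 genes with recovered head reads and a mean of at least 100, tyrosinase 2 was nearest to tyrosinase 1 and the reverse, at a distance of 0.48. Next to tyrosinase 1 came the hypothetical protein Smp_076320 at 0.72, with 3061 in tails and 0.392, 43.0 and 88.3 in heads, and the histone acetyltransferase Smp_165360 at 0.93. Next to tyrosinase 2 came Smp_076320 at 0.88 and the hypothetical protein Smp_192220 at 0.91. Nearest to the peroxidase were the hypothetical protein Smp_146480 at 0.24, with 426 in tails and 4.31, 8.94 and 17.3 in heads, Smp_000950, annotated as a mab-like protein, at 0.30 and the hypothetical protein Smp_000370 at 0.35. The peroxidase ranked 38 in likeness to either tyrosinase, at distances of 4.03 to tyrosinase 1 and 3.85 to tyrosinase 2. Seen from the peroxidase, tyrosinase 1 ranked 393 and tyrosinase 2 ranked 326, so many genes were closer to it than either tyrosinase. These distances are descriptions over 4 points of 2 body regions.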

How the data were processed

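The authors aligned TruSeq stranded reads to a WormBase ParaSite genome using STAR 2.5.0b, divided the reads of each gene by DESeq 1.22 size factors and averaged them. Which program counted reads, and with which strand setting, is not stated in those sources. The deposited signal values used are these normalized means over 3 tail, 3 head or all 6 libraries. The columns of the authors' own comparison (fold change, its log2, p-value and adjusted p-value) were not used, and 0 columns hold single libraries.

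Here the value of 1 read in each library was taken from repeated low means and refined by least squares, and whole reads were solved for tail means under 1000 (6441 of 6441 genes with 1 solution) and head means under 300 (4005 of 4027). Means shifted by a few last digits had a solution in 0.0854% of tail and 22.3% of head trials. On reads simulated with the same values of 1 read, 556 of 575 head means nearest to that limit had 1 solution. It was the right one in all 556, which this design fixed in advance. The simulation thus shows how often 1 solution is found, and error in the values of 1 read was not tested.

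Genes recovered in both groups with at least 10 reads over the 6 libraries, which leaves out the most abundant genes, were tested by limma 3.58.1 (log2 of the normalized count + 1, trended variance) with Benjamini-Hochberg adjustment over all tested. On simulated counts of 3457 genes, 88 of 100 changed 4-fold and 99 of 100 changed 8-fold were found, with 12 of 3257 unchanged genes called. The simulation gave every gene the same dispersion and raised its changed genes in tails only. Far more genes were called in the data, so its share of false calls need not hold there. Groups at 0 entered folds at 3 reads over the group. Named are the 3 genes, list genes changed by at least 8-fold, the extremes of each list at a mean of at least 100, and the 3 genes most alike to each. Lists were drawn from annotation words. Genes of the eggshell list without such words were added by identifier. The genes and lists were chosen with earlier results of these data known. Alternatives covered pseudocount, scaling, a level filter, thresholds and leaving out libraries. Intervals cover counting error only. RefSeq annotation (ASM23792v2) matched 9658 of 10831 genes and all 3 members, and served only for the order of genes, as the assembly behind WormBase ParaSite v4, the release the authors used, is not named in those sources.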

Additional observations from a re-analysis of the deposited data

How the results depend on the processing

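The log2 fold changes of the 3 genes kept their direction under each alternative run. They were 6.39 to 6.81 for tyrosinase 1, 6.04 to 6.45 for tyrosinase 2 and 4.84 to 5.25 for the peroxidase under other pseudocounts and scalings, and 6.25 to 8.05, 5.90 to 8.11 and 4.97 to 5.72 with single head libraries left out. Tail libraries could not be left out, as their reads were not recovered for these genes. The count of genes past a log2 fold change of 3 was 307 in tails and 213 in heads. It was 109 and 80 with a pseudocount of 10, 139 in tails among genes with a mean of at least 10, 389 in heads at equal totals, and 1702 and 2289 at a minimum log2 fold change of 1. By limma, 572 to 727 genes were higher and 1141 to 1642 lower in tails with single libraries left out, against 717 and 1484. All 8 named list genes followed in this way (chosen after seeing the data) kept an adjusted p from limma under 0.05. Among them, Smp_163900 reached the minimum of 10 reads by its heads alone and fs800 (Smp_000290) by its tails alone. Other genes given with a limma result, Smp_093780, Smp_062900, Smp_127160, Smp_127270 and Smp_137640, were not followed in this way. No paired analysis was possible because the deposited columns carry no replicate numbers.

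Head library 2.55 was the deepest, and its tyrosinase levels rest on 22 and 9 reads, so their counting error is wide. The abundance of the 3 genes in tails limits what is known there to means. The limma test covers only genes with tail means under 1000 and head means under 300.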

Other observations

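The genes next to the tyrosinases did not share their fold. In the order of the RefSeq annotation, among genes of the deposited table, tyrosinase 1 lies between the ribosomal protein L31 gene Smp_050280, with a log2 fold change of 2.36, and Smp_149040, a regulatory subunit of phosphorylase b kinase, with one of −0.75. Tyrosinase 2 lies on another chromosome, between the metallophosphoesterase Smp_129510 with 0.21 and Smp_129500, the largest subunit of RNA polymerase I, with 0.74. The peroxidase Smp_172830 has no chromosome in that annotation, so its neighbours were not read.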
